A study of Bos taurus with 3 samples.

Results

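The genes described are the 7 with the symbols LPL, CD36, FABP3, ACSL1, AGPAT6, GPAM and LPGAT1, which take fatty acids from blood or lipoproteins, carry them inside the cell, activate them to acyl-CoA, or attach them to glycerol lipids. They were chosen by symbol in the authors' gene descriptions, and each symbol belonged to 1 of the 9154 genes with tags in any library. Mammary biopsies came from 18 Holstein cows of the second parity, with 6 cows at −35 d (dry gland), 6 at −7 d (stage I of lactogenesis) and 6 at +3 d (stage II, colostrum production) relative to parturition. No treatment is named in the labels. RNA came from 1 pool of 6 cows at each time point and went into a single digital gene expression (DGE) library, so the spread among cows was not measured and none of the differences given here has a replicate check. DGE counts 21-base tags cut from cDNA next to NlaIII sites, and TPM is the number of tags of a gene per 1000000 clean tags of the library.

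The secretory cell of the mammary gland builds milk triacylglycerol from fatty acids that it makes itself and from long-chain fatty acids that arrive in blood. Lipoprotein lipase on the capillary wall frees fatty acids from circulating lipoproteins, CD36 helps to bring them across the cell membrane, and fatty acid binding proteins hold them in the cytosol. Acyl-CoA synthetases activate them, and acyltransferases then load them on to glycerol-3-phosphate, lysophosphatidate and diacylglycerol in turn. Ruminant milk fat is assembled along this route from the onset of lactation.

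The 3 libraries held 5593237 to 5914422 clean tags, and 8359 to 8662 genes were listed in each. Pairs of libraries were compared with the Audic-Claverie test, an exact two-sided test of Poisson counting error, adjusted by the Benjamini-Hochberg method over all genes tested. A gene was called upregulated or downregulated at an adjusted p of at most 0.001 and a difference of at least 2-fold. This test compares libraries and not time points. All intervals given here are 95% intervals of counting error only, and they treat tags as independent. PCR copies of a tag are not independent molecules, so even the counting error may be larger than the intervals show. Stage I below stands for the −7 d library against the −35 d library, stage II for +3 d against −7 d, and the whole interval for +3 d against −35 d, so that each library enters a pair of comparisons. The median log2 ratio of all genes tested was −0.22 in stage I, −0.30 in stage II and −0.56 over the whole interval. The 5 genes above 1% of a library, all milk protein genes, took up 0.348%, 4.13% and 22.6% of the −35 d, −7 d and +3 d libraries. TMM scaling, which centres the ratios of most genes near 0, raised every log2 ratio by 0.19 in stage I, 0.31 in stage II and 0.50 over the whole interval. It changed the split of all called genes from 235 higher and 578 lower to 378 and 350 in stage I, from 274 and 915 to 516 and 430 in stage II, and from 209 and 1463 to 560 and 444 over the whole interval.

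In stage I, FABP3 was upregulated and CD36 was downregulated, so that 2 of the 7 genes were called, beside 9.07% of the 8967 genes tested (2.62% higher and 6.45% lower). In stage II, LPL, CD36 and FABP3 were upregulated, which is 3 of the 6 genes with tags in either library, beside 13.5% of 8784 (3.12% higher and 10.4% lower). Over the whole interval LPL and FABP3 were upregulated and LPGAT1 was downregulated, 3 of 7 beside 18.6% of 8988 (2.33% higher and 16.3% lower). With no threshold on the fold, 4, 4 and 5 of the genes had an adjusted p of at most 0.001, beside 22.5%, 28% and 34.1% of all genes tested. After TMM scaling the genes called were FABP3 and ACSL1 in stage I, both higher, beside 8.12% of all genes (4.22% higher and 3.9% lower), the same 3 genes in stage II beside 10.8% (5.87% higher and 4.9% lower), and LPL, CD36 and FABP3, all higher, over the whole interval beside 11.2% (6.23% higher and 4.94% lower). The median log2 ratio of the 7 genes (6 in stage II) was 0.12, 1.10 and 0.48 in the 3 comparisons, and it was the same with the counts of 0 of LPGAT1 set to 3 tags. ACSL1, GPAM and AGPAT6 were not called in any comparison by total of clean tags, and their levels differed by less than 2-fold between all pairs of libraries.

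**Figure D1:**
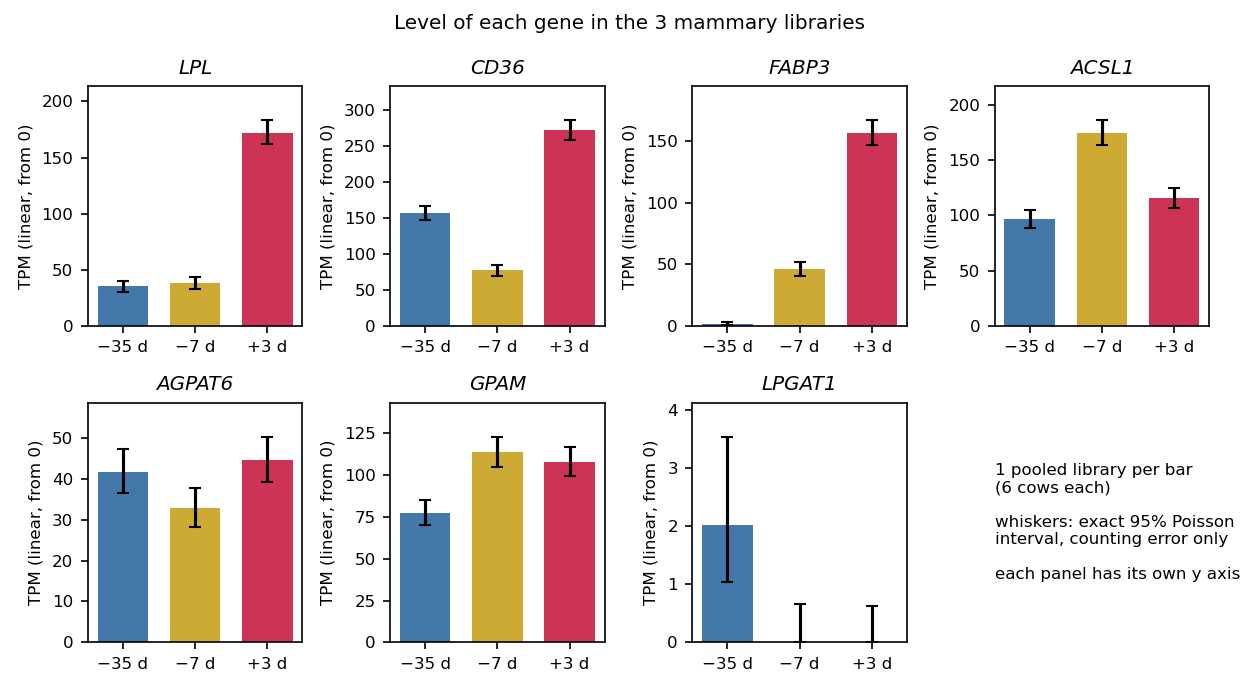
Level of each of the 7 genes in TPM (linear axis from 0, a separate axis for each panel) in the −35 d, −7 d and +3 d libraries, with whiskers for the exact 95% Poisson interval. LPL, CD36 and FABP3 stood highest at +3 d with 172, 272 and 157 TPM, ACSL1 stood highest at −7 d with 175 TPM, and LPGAT1 was listed only at −35 d.

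LPL encodes lipoprotein lipase, the enzyme that hydrolyses the triacylglycerol of chylomicrons and very low density lipoproteins. It was listed at 35.2 TPM at −35 d (208 tags), 38.3 TPM at −7 d (214 tags) and 172 TPM at +3 d (1007 tags). The 2 libraries before parturition had overlapping intervals, 30.6 to 40.3 TPM and 33.3 to 43.7 TPM, and the +3 d library lay far above both. LPL thus rose by 4.50-fold in stage II (interval 3.88 to 5.24, Audic-Claverie adjusted p = 5.1e-114), after a ratio of 1.09 in stage I that did not pass the test (interval 0.895 to 1.32, adjusted p = 0.504). Over the whole interval the difference was 4.90-fold (4.21 to 5.71, adjusted p = 2.9e-126). The stage II call remained when a coefficient of variation of 0.2 between pools was assumed in edgeR's exact test, and it was lost with an assumed 0.4 (adjusted p = 0.635).

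CD36 encodes the scavenger receptor and fatty acid translocase of the plasma membrane, which is also a protein of the milk fat globule membrane and is made by adipocytes, capillary endothelium and macrophages as well. It had 157 TPM at −35 d (928 tags), 77.2 TPM at −7 d (432 tags) and 272 TPM at +3 d (1592 tags). The lowest library was thus −7 d, and none of the 3 intervals overlapped. In stage I CD36 was 2.03-fold lower (interval 1.81 to 2.28, Audic-Claverie adjusted p = 1.2e-34), a log2 ratio of −1.02 just past the 2-fold threshold, and after TMM scaling the log2 ratio was −0.83 and the gene was no longer called. In stage II it rose by 3.53-fold (3.17 to 3.93, adjusted p = 1.2e-142), a call that was kept under every scaling tried but not with an assumed coefficient of variation of 0.2 (edgeR's exact test, adjusted p = 0.00123). Over the whole interval the ratio was 1.74 (1.60 to 1.88), under the 2-fold threshold, and TMM scaling made it an upregulated gene with a log2 ratio of 1.29.

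Markers of adipocytes, macrophages, and myoepithelium with smooth muscle also had their lowest summed level at −7 d. The 8 adipocyte markers summed to 282, 169 and 396 TPM at −35 d, −7 d and +3 d, with 1 of them listed at 0 in each of the later libraries (PLIN4). Most of this sum came from FABP4 and CFD, and the other 6 adipocyte genes, with the adipokine ADIPOQ and the lipid droplet protein PLIN1 among them, summed to 57.3, 45.6 and 37.1 TPM. The 9 macrophage markers with tags, of 12 on the list, summed to 399, 295 and 506 TPM. Of their 10 entries (MSR1 has 2), 3 were called lower in stage I, beside 6.45% of all genes tested. In stage II 3 were called higher, beside 3.12%. CSF1R was called in both stages. CD163, with 7.78, 1.97 and 19.8 TPM, was also lowest at −7 d, as were CD68, AIF1, MSR1, C1QA and C1QB. In contrast, CD14 rose from 2.87 to 4.29 and 19.7 TPM, and FCER1G had 58.0, 33.4 and 33.5 TPM. The 8 markers of myoepithelium and smooth muscle summed to 862, 512 and 965 TPM. Of these, ACTA2, MYH11, TAGLN, CNN1 and KRT5 were lowest at −7 d, but MYLK and OXTR rose through both stages and KRT14 was lowest at +3 d. The 9 endothelial markers with tags, of 10, summed to 232, 235 and 325 TPM. The largest part of this sum was ENG, which rose from 96.5 to 129 and 170 TPM. PECAM1, CDH5, TEK, TIE1, CLDN5 and EGFL7 were lowest at −7 d, whereas ESAM was lowest at −35 d and KDR at +3 d. The luminal epithelial markers, 8 of 10 with tags, instead summed to 1628, 1207 and 914 TPM, but single genes were divided. EPCAM, ELF5 and CLDN7 were lowest at +3 d, while KRT8, CDH1, CLDN3 and CLDN4 were lowest at −7 d. KRT7 had 247 TPM at −7 d and 236 TPM at +3 d. All these sums are by total of clean tags and were not rescaled. TMM scaling raised every log2 ratio by 0.19 in stage I and 0.31 in stage II, so the size of a fall of a sum depends on the scaling. In stage I the adipocyte, macrophage, myoepithelial and luminal sums fell by more than this shift. In stage II the luminal sum also did, but the sum of the other 6 adipocyte genes did not. Fewer cells of a type and less RNA per cell cannot be told apart in pooled tissue, and the part of these cell types in the levels of CD36 and LPL was not tested.

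**Figure D2:**
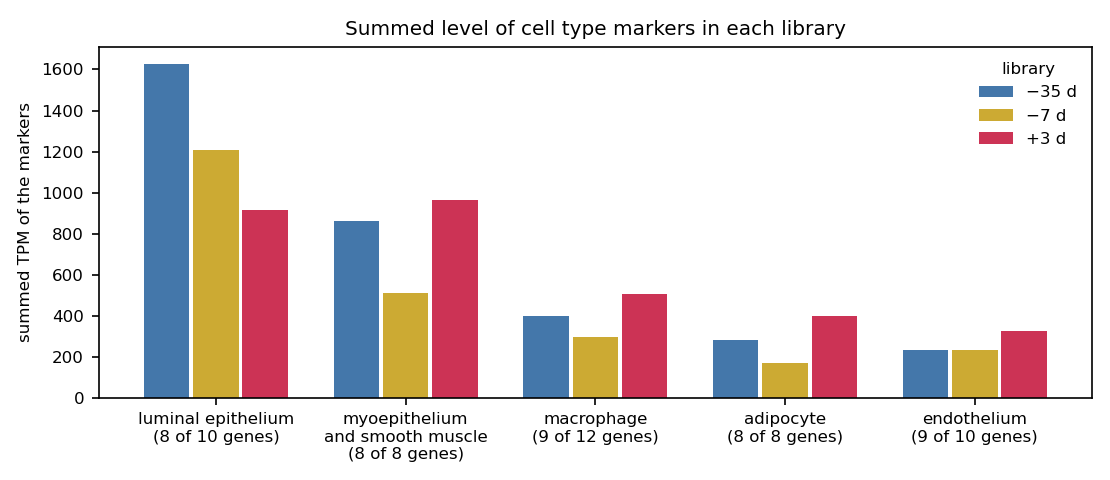
Summed TPM of the marker genes of 5 cell types in the −35 d, −7 d and +3 d libraries (1 pooled library per bar, no replicates, linear axis from 0). Luminal epithelial markers summed to 1628, 1207 and 914 TPM, while the sums of myoepithelial, macrophage and adipocyte markers were lowest at −7 d. Single markers of a type did not all follow its sum.

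FABP3 encodes the heart-type fatty acid binding protein, a small cytosolic carrier of long-chain fatty acids that is abundant in lactating bovine mammary epithelium and in oxidative muscle. It had 1.52 TPM at −35 d (9 tags), 46.3 TPM at −7 d (259 tags) and 157 TPM at +3 d (915 tags). The 3 intervals, 0.696 to 2.89, 40.8 to 52.3 and 147 to 167 TPM, were well apart, and FABP3 was the only gene of the 7 that was called higher in both stages. It rose by 30.4-fold in stage I (interval 15.8 to 67.3, Audic-Claverie adjusted p = 3.1e-66) and by 3.38-fold in stage II (2.94 to 3.90, adjusted p = 2.2e-78). The whole interval gave 103-fold (53.9 to 226, adjusted p = 9.7e-258), with a wide interval because the −35 d value rests on 9 tags. The log2 ratio of 6.68 over this interval was above that of 99.6% of the genes tested. It was also the only difference of the 7 genes called when a coefficient of variation of 0.4 was assumed in edgeR's exact test, while the stage II call was lost with 0.2 (adjusted p = 0.00222). Markers of skeletal muscle, in which FABP3 is also made, summed to 0.845, 1.43 and 2.39 TPM, with 5 or 6 of the 8 listed at 0.

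Other fatty acid binding proteins did not follow this course. FABP4, the adipocyte form that is also found in capillary endothelium, had 153, 91.4 and 244 TPM at −35 d, −7 d and +3 d, and FABP5, the epidermal form, had 77.1, 34.7 and 81.1 TPM. FABP5 was 2.22-fold lower in stage I (Audic-Claverie adjusted p = 7.1e-21, not called after TMM scaling), and both rose in stage II, FABP4 by 2.67-fold and FABP5 by 2.34-fold. As a share of the tags on the 5 FABP genes with tags (FABP3, FABP4, FABP5, FABP7 and PMP2), FABP3 made up 0.652% at −35 d (95% Wilson interval 0.343% to 1.23%), 26.8% at −7 d (24.1% to 29.7%) and 32.3% at +3 d (30.6% to 34.1%). FABP4 went from 65.5% to 52.9% and 50.4% of the same tags, and FABP5 from 33.0% to 20.1% and 16.7%. Such a share does not depend on how libraries are scaled to each other. The number of tags that a transcript yields differs between genes, however, so the change of a share between libraries can be read but not the share as a count of molecules.

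ACSL1 encodes a long-chain acyl-CoA synthetase, which joins a fatty acid to coenzyme A and so holds it in the cell for esterification or oxidation. It had 96.4 TPM at −35 d (570 tags), 175 TPM at −7 d (977 tags) and 116 TPM at +3 d (676 tags). The −7 d library stood highest, beyond the intervals of both others. The ratio was 1.81 in stage I (interval 1.63 to 2.01, Audic-Claverie adjusted p = 5.1e-29), 0.662 in stage II (0.599 to 0.731, adjusted p = 1.1e-15) and 1.20 over the whole interval (1.07 to 1.34, adjusted p = 0.00349). The first 2 differences exceeded counting error at less than 2-fold. After TMM scaling the stage I log2 ratio was 1.05, and ACSL1 was then called upregulated, whereas with the 5 milk protein genes left out of the totals it was not.

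Within the ACSL family, ACSL1 made up 47.8% of the tags on the 4 genes listed (ACSL1, ACSL3, ACSL5 and ACSL6) at −35 d (95% Wilson interval 45.0% to 50.7%), 68.2% at −7 d (65.7% to 70.5%) and 68.9% at +3 d (65.9% to 71.7%). The share was thus larger in the 2 later libraries, and these did not differ from each other beyond counting error. ACSL5 had 68.1, 35.9 and 30.1 TPM at −35 d, −7 d and +3 d and was called lower over the whole interval (log2 ratio −1.18, Audic-Claverie adjusted p = 6.2e-20). ACSL3 had 33.5, 44.9 and 19.8 TPM and was called lower in stage II (log2 ratio −1.18, adjusted p = 5.0e-13). Neither call was kept after TMM scaling.

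**Figure D3:**
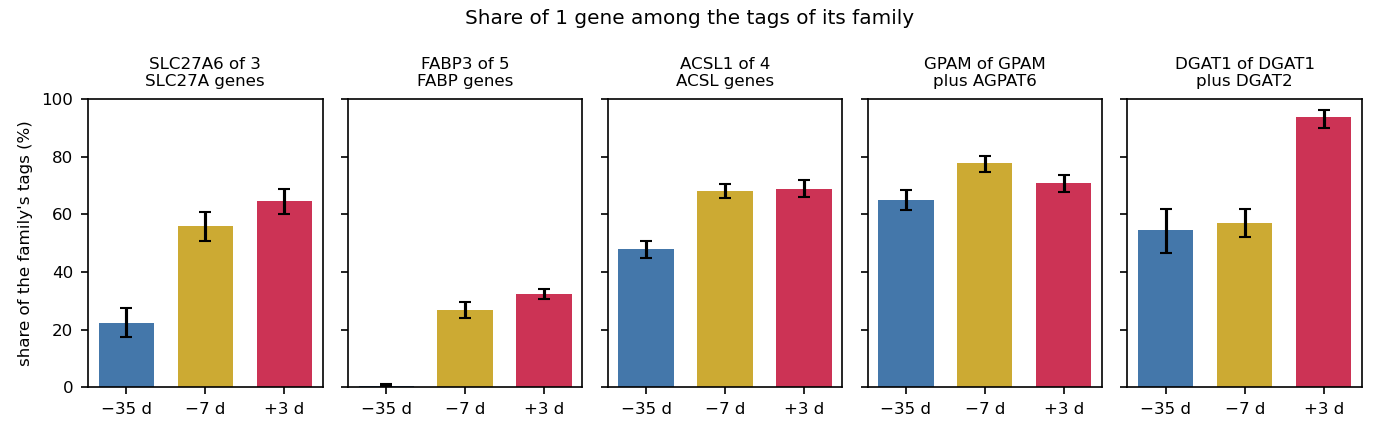
Share of 1 gene among the tags of its family, in percent, in each library, with whiskers for the 95% Wilson interval of counting error. FABP3 went from 0.652% to 32.3% of the FABP tags, SLC27A6 from 22.2% to 64.6% of the SLC27A tags, and DGAT1 from 54.4% to 93.8% of the DGAT tags between −35 d and +3 d.

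GPAM and AGPAT6 encode glycerol-3-phosphate acyltransferases of the mitochondrial outer membrane and of the endoplasmic reticulum, respectively, which catalyse the first acylation of glycerol-3-phosphate. The current bovine annotation names AGPAT6 as GPAT4. GPAM had 77.3 TPM at −35 d (457 tags), 114 TPM at −7 d (635 tags) and 108 TPM at +3 d (630 tags). The −35 d library lay below the other 2, whose intervals overlapped. Its ratio was 1.47 in stage I (interval 1.30 to 1.66, Audic-Claverie adjusted p = 3.1e-09) and 0.949 in stage II (0.849 to 1.06, adjusted p = 0.461). The stage II log2 ratio of −0.08 had no stable sign, since TMM scaling gave 0.23.

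AGPAT6 had 41.6 TPM at −35 d (246 tags), 32.7 TPM at −7 d (183 tags) and 44.5 TPM at +3 d (260 tags). The −7 d library was the lowest, and its upper limit of 37.8 TPM overlapped the interval at −35 d, which began at 36.6 TPM. By total of clean tags, none of its comparisons reached an adjusted p of 0.001 (Audic-Claverie adjusted p = 0.0373 in stage I, 0.00431 in stage II and 0.536 over the whole interval). After TMM scaling the log2 ratio was 0.75 in stage II (adjusted p = 3.9e-07) and 0.59 over the whole interval (adjusted p = 2.0e-05), both under the 2-fold threshold, so that AGPAT6 was not called. GPAM made up 65.0% of the tags on this pair of genes at −35 d (95% Wilson interval 61.4% to 68.4%), 77.6% at −7 d (74.6% to 80.4%) and 70.8% at +3 d (67.7% to 73.7%). The balance between them was thus shifted most towards GPAM at −7 d. Among the 6 genes named AGPAT, AGPAT6 held 24.0%, 23.6% and 29.6% of the tags in the 3 libraries.

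LPGAT1 encodes lysophosphatidylglycerol acyltransferase, which acylates lysophospholipids. It was listed with 12 tags at −35 d (2.03 TPM, interval 1.05 to 3.54) and was not listed in either later library. A count of 0 allows about 3 tags, or 0.536 TPM at −7 d and 0.513 TPM at +3 d, and the exact two-sided Poisson interval used for the other levels reached 0.660 and 0.631 TPM. Tags with 1 copy had been removed, and the authors' summary counted 228 and 223 more genes with unambiguous tags in these libraries than the tables list, so LPGAT1 may have had tags there and no fold is given. The same 12 against 0 tags was called downregulated over the whole interval (Audic-Claverie adjusted p = 0.000787) and not in stage I (adjusted p = 0.00149). The call was lost after TMM scaling (adjusted p = 0.00661) and with Fisher's exact test (adjusted p = 0.00141).

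**Figure D4:**
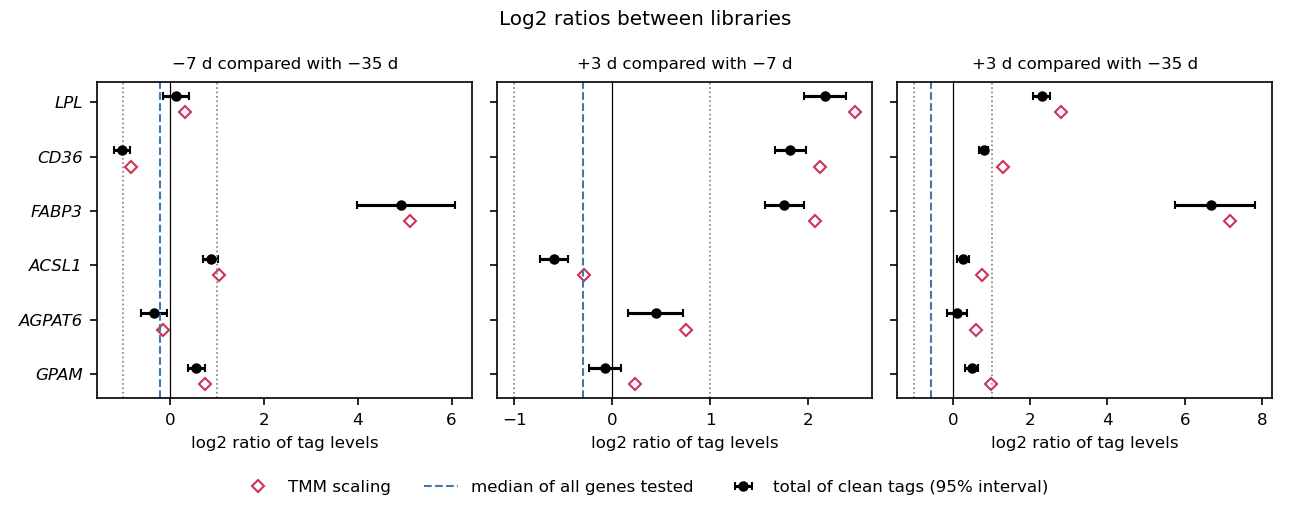
Log2 ratio of each gene between libraries, by total of clean tags (points with 95% intervals of counting error) and after TMM scaling (diamonds), with the median of all genes tested (dashed line) and the 2-fold thresholds (dotted lines). LPGAT1 is left out because it was not listed in 2 libraries. CD36 lay at −1.02 in stage I and LPL, CD36 and FABP3 lay at 2.17, 1.82 and 1.76 in stage II.

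The change of 1 gene relative to another within the same pair of libraries is free of the scaling between libraries. Over the 6 genes with tags in every library, the interval of this relative change left out 0 for 15 of 15 pairs in stage I, 14 of 15 in stage II and 13 of 15 over the whole interval. These intervals were not adjusted for the number of pairs. In stage I, LPL gained on CD36 by 1.14 on the log2 scale (0.81 to 1.47), ACSL1 gained on CD36 by 1.88, since CD36 relative to ACSL1 had a log2 change of −1.88 (−2.11 to −1.65), and FABP3 gained on ACSL1 by 4.07 (3.11 to 5.22). In stage II LPL, CD36 and FABP3 gained on ACSL1, GPAM and AGPAT6. Relative to ACSL1, LPL gained 2.77 (2.51 to 3.03), CD36 2.41 (2.20 to 2.63) and FABP3 2.35 (2.10 to 2.60). Relative to GPAM the gains were 2.25 (1.97 to 2.52), 1.89 (1.67 to 2.12) and 1.83 (1.57 to 2.09). They were smaller relative to AGPAT6, at 1.73 (1.37 to 2.08), 1.38 (1.05 to 1.70) and 1.31 (0.97 to 1.66). CD36 and FABP3 did not differ beyond counting error in stage II, with a relative change of 0.06 (−0.20 to 0.32). Between −35 d and +3 d, ACSL1 did not differ in its change from AGPAT6 (0.17, −0.14 to 0.47) or from GPAM (−0.22, −0.46 to 0.02) beyond counting error.

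A list of 68 genes of the same route, from uptake to diacylglycerol acylation, was set beside the 7 genes, and 42 of them had tags in at least 1 library, 35 without the 7. Of these 35, 9 were called in stage I (6 higher and 3 lower), 8 in stage II (2 higher and 6 lower) and 8 over the whole interval (2 higher and 6 lower). These are 25.7%, 22.9% and 22.9% of the 35, beside 9.07%, 13.5% and 18.6% of all genes tested. After TMM scaling the counts among the 35 were 6 higher and 0 lower, 4 higher and 1 lower, and 4 higher and 3 lower, beside 8.12%, 10.8% and 11.2% of all genes called in either direction. The median log2 ratio of the 35 was −0.22, −0.18 and −0.51, and −0.22, −0.17 and −0.29 with counts of at most 3 tags set to 3.

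Among the other uptake genes, the fatty acid transport protein SLC27A6 had 9.64 TPM at −35 d, 36.1 TPM at −7 d and 51.0 TPM at +3 d. It rose by 1.91 on the log2 scale in stage I (Audic-Claverie adjusted p = 8.6e-21) and by 2.40 over the whole interval (adjusted p = 6.8e-40), and it went from 22.2% of the tags on the SLC27A genes listed (95% Wilson interval 17.5% to 27.6%) to 55.8% (50.7% to 60.8%) and 64.6% (60.2% to 68.9%). SLC27A1, SLC27A5, SCARB1 and LMF1 were not called in any comparison.

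In the binding and activation steps, DBI (acyl-CoA binding protein) had 71.2, 154 and 62.3 TPM and ACSS2, which activates acetate, had 30.3, 78.8 and 32.3 TPM at −35 d, −7 d and +3 d. Both were highest at −7 d, as ACSL1 was, and both were called higher in stage I (log2 ratios 1.11 and 1.38) and lower in stage II (−1.31 and −1.29). After TMM scaling both stage II ratios were just inside the 2-fold threshold (log2 ratio −0.98 for ACSS2), and only the stage I calls were kept. ACSF2, a mitochondrial acyl-CoA synthetase, had 76.9, 44.9 and 23.8 TPM and fell by 1.69 on the log2 scale between −35 d and +3 d (Audic-Claverie adjusted p = 4.3e-38), also after TMM scaling. ACSS3, a further short-chain synthetase, had 15.7, 13.8 and 6.50 TPM and was called lower at +3 d compared with each earlier library, in neither case after TMM scaling. Of the 10 activation genes outside the 7 described, 1 was called higher in stage I, beside 2.62% of all genes tested, 3 were called lower in stage II, beside 10.4%, and 3 were called lower over the whole interval, beside 16.3%. After TMM scaling none of these 3 calls in stage II was kept, and over the whole interval ACSF2 alone kept its call.

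In the esterification steps, DGAT1 and DGAT2, which acylate diacylglycerol to triacylglycerol, took separate courses. DGAT1 had 14.5 TPM at −35 d (86 tags), 39.3 TPM at −7 d (220 tags) and 38.7 TPM at +3 d (226 tags), and DGAT2 had 12.2 TPM (72 tags), 29.5 TPM (165 tags) and 2.57 TPM (15 tags). Both were called higher in stage I, with log2 ratios of 1.44 and 1.28. In stage II DGAT1 had a log2 ratio of −0.02 (interval −0.30 to 0.25), whereas DGAT2 fell by 3.52 (Audic-Claverie adjusted p = 2.1e-33), also after TMM scaling. DGAT1 made up 54.4% (95% Wilson interval 46.7% to 62.0%), 57.1% (52.2% to 62.0%) and 93.8% (90.0% to 96.2%) of the tags on this pair of genes.

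For the steps between glycerol-3-phosphate and diacylglycerol, tags were listed for 5 further acyltransferases and 3 phosphatases. In stage I 1 of the 5 and 1 of the 3 were called lower, beside 6.45% of all genes tested. The counts were again 1 of 5 and 1 of 3 over the whole interval, beside 16.3%. None was called in stage II, where AGPAT1 had a log2 ratio of 0.58 (Audic-Claverie adjusted p = 6.7e-06), under the 2-fold threshold. AGPAT2, an acyltransferase of lysophosphatidate, had 35.0, 20.6 and 17.3 TPM and was called lower over the whole interval (log2 ratio −1.02), and the related AGPAT3 was called lower in stage I from 33 to 8 tags (−1.96). The phosphatidate phosphatases PPAP2A and PPAP2C were called lower in stage I (−1.12) and over the whole interval (−1.56), respectively. Of these 4 genes only PPAP2C was also called after TMM scaling. The lipin phosphatases on the list, LPIN1, LPIN2 and LPIN3, had no tags under these symbols in any library, so none could be called. LPCAT3 and LPCAT4, the only genes of lysophospholipid acylation with tags beside LPGAT1, were not called in any comparison by total of clean tags. After TMM scaling LPCAT4 was called higher in stage II (log2 ratio 1.04) and LPCAT3 over the whole interval (1.08).

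**Figure D5:**
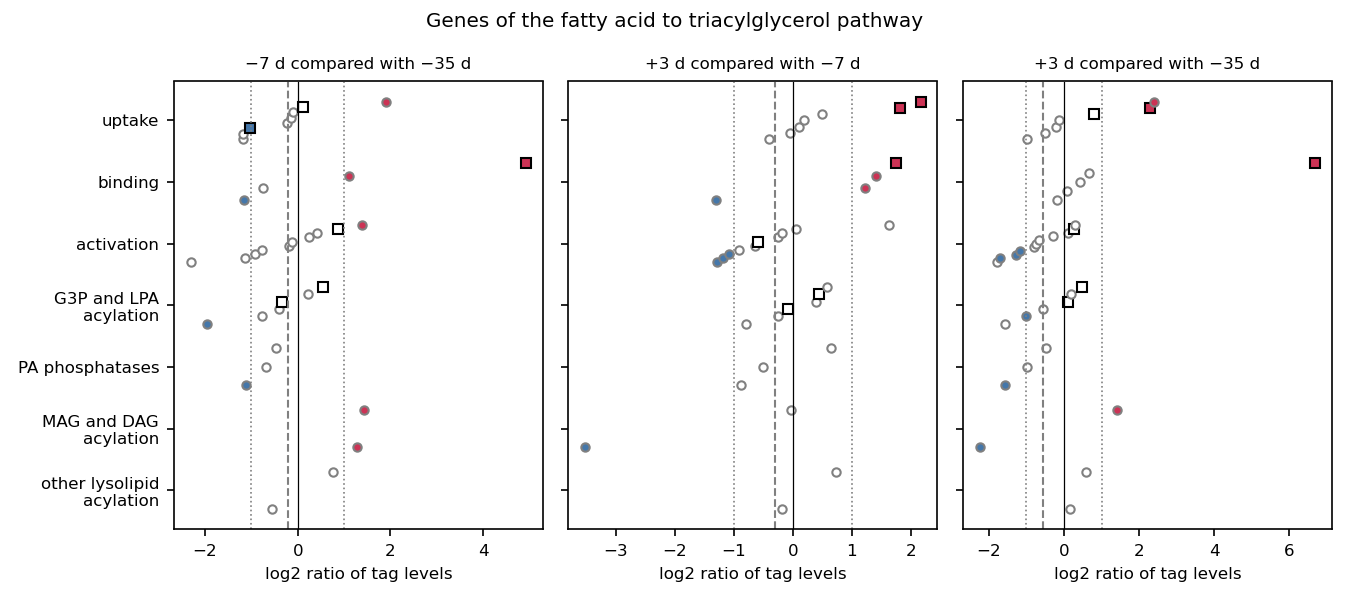
Log2 ratio of each reported gene of the route with over 3 tags in both libraries of a comparison, by step (squares, the genes described; circles, the other genes of the list; red, called higher; blue, called lower; white, not called). The dashed line is the median of all genes tested and dotted lines are the 2-fold thresholds. FABP3 lay farthest to the right in stage I (4.93), and DGAT2 farthest to the left in stage II (−3.52).

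The profiles of the genes were also set beside those of all genes with at least 20 tags in every library (5721 other genes), as the distance between log2 TPM values over the 3 libraries after each gene was centred on its own mean. The nearest to LPL were DES (desmin, 37.4, 39.3 and 179 TPM, distance 0.034), LOC504773 (0.118) and RARRES1 (0.144), and 11 genes lay within 0.5 of LPL. The nearest to CD36 were ELN (elastin, 151, 79.2 and 275 TPM, distance 0.065), CFD (complement factor D, 71.4, 32.2 and 114 TPM, 0.099) and LOC617696 (0.130), with 62 genes within 0.5. The flatter profiles of ACSL1, GPAM and AGPAT6 were shared by many more genes, 815, 1033 and 1444 within the same distance, so that their nearest genes are hardly set apart from the rest. These were BBS4, C3orf57 and LOC100337294 for ACSL1 (distances 0.022 to 0.023), SRA1, C16H1orf174 and LOC100335784 for GPAM (0.012 to 0.024), and B4GALT7, USP3 and TDRD7 for AGPAT6 (0.014 to 0.024). FABP3 and LPGAT1 had fewer than 20 tags in a library and were left out. Among the genes described, ACSL1 and GPAM were the nearest pair (0.369), and LPL and ACSL1 were the farthest apart (2.03). With 3 libraries, such a distance rests on 3 values per gene.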

How the data were processed

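Clean tags were obtained by the authors after adaptors, tags with uncalled bases, tags of another length and those seen in 1 copy had been discarded. Each clean tag, CATG and 17 bases, was assigned by them to UMD 3.1 transcripts allowing 1 mismatch, and tags shared by genes were dropped. The deposited counts are the unambiguous tags of each gene and the copies of each distinct tag, and the deposited TPM values are these counts per 1000000 clean tags, which the counts gave again to within 0.0050 TPM. The deposited summary holds tag and gene numbers by mapping class as other values. A gene not listed was given 0 tags. Tags were not matched to genes here, because no transcript sequences were used.

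For the Audic-Claverie test the smaller tail was multiplied by 2 and adjusted over all genes listed in at least 1 library of the pair. A level of 0 TPM was set to 0.01 TPM for calls, and no fold is given with 3 tags or fewer. Intervals were exact Poisson (levels), exact binomial (ratios), Wilson (shares) and exact conditional (relative changes), at 95%. The scripts were tested on simulated data. The genes described and all lists were chosen with earlier results of these data known. Named genes are the 7 described, every gene of the pathway list called in any comparison (some of its genes are not reported by name, though counts over the list include them), and the 3 nearest profiles of each gene with at least 20 tags in every library, and genes named as not called or as markers were named after their values were seen. Symbols of 7 of the 7 genes were matched by accession to the assembly ARS-UCD2.0, used for names only. Alternatives were TMM scaling, DESeq2's size factors, totals without the genes over 1% of a library, Fisher's exact test, a 3-fold threshold, edgeR's exact test in which the spread between pools was set to a coefficient of variation of 0.2 or 0.4, a mean of at least 5 TPM and 0.5 tags added. Tools were Python 3.11.15, numpy 2.4.6, scipy 1.17.1, pandas 2.3.3, matplotlib 3.10.9, R 4.3.3, edgeR 4.0.16 and DESeq2 1.42.0.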

Additional observations from a re-analysis of the deposited data

How the results depend on the processing

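With 1 library per time point, the assumed spread between pools moved the counts most. With a coefficient of variation of 0.2 set in edgeR's exact test, 1 of the 7 genes was called in stage I (FABP3), 1 in stage II (LPL) and 2 over the whole interval (LPL and FABP3), and with 0.4 the counts were 0, 0 and 1 in stage I, stage II and the whole interval. For genes of the route, 0.2 gave 1, 2 and 3 calls and 0.4 gave 0, 0 and 1, in place of 11 in each. Over all genes, 0.2 gave 54, 160 and 156 calls and 0.4 gave 3, 8 and 14, in place of 813, 1189 and 1672. At an unadjusted Audic-Claverie p under 0.05 there were 4189, 4350 and 5060 genes. A 3-fold threshold left 1 of the 7 genes in stage I, left 3, 4 and 6 genes of the route, and left 317, 440 and 659 of all genes. Leaving the milk protein genes out of the totals left 1 of the 7 genes in stage I, because CD36 then had a log2 ratio of −0.97. Over the whole interval, all genes called numbered 1004 with TMM scaling, 992 with DESeq2's size factors and 1039 without the milk protein genes in the totals. The log2 ratio of GPAM in stage II reversed from −0.08 to 0.23 with TMM scaling, 0.25 with DESeq2's size factors and 0.23 without the milk protein genes. Over the 6 genes with tags in every library, LPGAT1 being left out, there were 162 alternative results of single genes. Of these, 141 kept their direction and were called or not called as before, 13 lost a call, 5 gained one and 3 reversed. Settings that changed only the test, the fold threshold or the genes included left the log2 ratio as it was, so its direction could not change. A gene not called by total of clean tags could not lose a call. Adding 0.5 tags moved no relative change between genes outside its interval. No paired analysis was possible because each time point has 1 library. Depth limits FABP3 at −35 d (9 tags) and LPGAT1 (12 tags at −35 d) most.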
